A study of Mus musculus with 34 samples.

Results

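Gm7325, the gene of the fusion peptide myomixer, and 8 further genes that define or serve the skeletal muscle lineage were followed in mouse embryonic stem cells (mESCs) kept without leukemia inhibitory factor (LIF), with and without the honey bee protein Royalactin. The 9 genes were found by symbol among the 23366 gene rows of the deposited table: Gm7325, Tmem8c (myomaker), the 4 myogenic regulatory factors Myod1, Myog, Myf5 and Myf6, and Mef2a, Mef2c and Mef2d of the MEF2 family. Gm7325 was chosen by its normalized counts in these same libraries, where it rose with Royalactin, so its values are a description and were not tested. The other 8 were taken for their role in muscle, with earlier results of these data known, to see whether a muscle programme came with it.

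All libraries came from J1 cells, 1 established mESC line grown on gelatin in serum medium with LIF withdrawn. The conditions compared were serum/-LIF (2 libraries) and serum/-LIF + Royalactin (2 libraries), the latter with purified Royalactin at 0.5 mg/ml. The labels give passage 40 and the paper passage 10, and no age or genotype beyond the line is given. Total RNA depleted of ribosomal RNA was sequenced as single reads of 75 bases. The sample labels name no serum/+LIF library of RNA, and none was analysed here. They also do not say how far the replicates are separate cultures, so that the p-values measure the spread between these libraries only.

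Skeletal muscle fibres form when myoblasts fuse. Myod1, Myf5, Myf6 and Myog are basic helix-loop-helix transcription factors that pair with E proteins, bind E-boxes (CANNTG) and together direct commitment and differentiation. MEF2 proteins bind an AT-rich motif and act with them on muscle genes, but are also made in neurons, lymphocytes and many other cells. Myomaker, a membrane protein with several transmembrane segments, starts the mixing of the membranes of fusing myoblasts. Myomixer, a micropeptide also named minion and myomerger, completes the opening of the fusion pore. In myoblasts both fusion genes are switched on by the myogenic regulatory factors.

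RefSeq promoter sequences (GRCm38.p6, a later build than that of the deposited values) were at hand for 5 of the 9 members in 7 entries, namely Myog, Myf5, Mef2a, Mef2c with 3 starts, and Mef2d. The 4 without an entry are Gm7325, Tmem8c, Myod1 and Myf6. The promoters of 3 muscle genes are printed because the genes behaved differently in these cells: Myog, a member with almost no reads, and Ttn and Mylpf, a giant sarcomere protein and a myosin light chain whose values with Royalactin were several times higher. Each is the 250 bases before the annotated start, written 5′ to 3′ on the strand of the gene. They lie at chr1:134289754-134290003 (plus strand), chr2:76982548-76982797 (minus strand) and chr7:127211358-127211607 (plus strand). Capitals mark E-boxes (CANNTG, which covers both strands) and the MEF2 motif, searched on both strands as its usual 10-base consensus.
Myog: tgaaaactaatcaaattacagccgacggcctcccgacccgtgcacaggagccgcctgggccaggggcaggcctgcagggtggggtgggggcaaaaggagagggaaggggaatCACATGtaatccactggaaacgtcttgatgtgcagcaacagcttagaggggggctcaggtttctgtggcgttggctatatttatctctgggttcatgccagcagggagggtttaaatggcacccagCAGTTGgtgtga
Ttn: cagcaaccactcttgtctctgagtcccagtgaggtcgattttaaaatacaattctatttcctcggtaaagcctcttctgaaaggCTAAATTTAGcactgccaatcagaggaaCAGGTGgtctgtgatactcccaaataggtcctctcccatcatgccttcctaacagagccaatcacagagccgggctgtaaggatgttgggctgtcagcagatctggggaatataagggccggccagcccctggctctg
Mylpf: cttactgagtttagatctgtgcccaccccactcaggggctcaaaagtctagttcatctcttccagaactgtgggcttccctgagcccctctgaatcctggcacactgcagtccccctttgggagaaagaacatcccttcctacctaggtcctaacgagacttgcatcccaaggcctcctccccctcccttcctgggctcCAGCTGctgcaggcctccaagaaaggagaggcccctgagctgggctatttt
The Myog promoter held 2 E-boxes, beginning 138 and 12 bases before the start, and no match to the MEF2 consensus. Its stretch ctatatttat departs from that consensus only at the last base, so a missing mark does not mean that a MEF2 site is absent. The Ttn promoter held 1 E-box, 138 bases before the start, and 1 MEF2 motif, 166 bases before it. The single E-box of Mylpf, 51 bases before the start, reads CAGCTG. Among the other members, 2 of the 3 Mef2c promoters held E-boxes (2 and 1), and none was found in the third or in those of Myf5, Mef2a and Mef2d. Over all 32851 promoters in the collection, 66.2% held an E-box in these 250 bases, 13.0% one that reads CAGCTG and 2.92% the MEF2 motif. E-boxes are thus found in most promoters, and the matches describe letters only, not occupied sites.

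The libraries had 14737796 to 17597818 reads on genes and 7878527 to 15999458 without Rn45s, and a single read was worth 0.688 to 1.34 normalized counts. Rn45s, the precursor of ribosomal RNA, took 46.6% and 21.6% of the reads in serum/-LIF replicates 1 and 2 and 38.4% and 9.08% with Royalactin, which leaves replicate 1 of each condition the shallower of its pair. All 12 embryonic stem cell markers passed the minimum mean of 10 used for testing, which is taken over the 4 libraries together. It therefore cannot show that the stem cell label held in serum/-LIF, where the paper describes rapid differentiation. The log2 fold change was above 0 for 11 of the 12, and 7 were not called. Tdgf1 went the other way, at 10914 and 14553 normalized counts in serum/-LIF and 8696 and 9728 with Royalactin (adjusted p = 0.730 by limma). The 5 called markers (Sox2, Esrrb, Klf4, Tfcp2l1 and Zfp42) were higher with Royalactin, against 0.331% of all tested genes. Of 12 alternative settings, Sox2 was called in 5 and the other 4 in 8. These are bulk libraries, in which fewer cells of a type and less RNA per cell cannot be told apart.

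Gm7325 went from no read to a level above most genes. It had no read in either serum/-LIF library, and 183 and 277 reads, or 184 and 191 normalized counts, in Royalactin replicates 1 and 2 (95% exact Poisson intervals of 157 to 212 and 245 to 312 reads, for counting error only). The conditions did not overlap, as for the 19.7% of tested genes with both Royalactin libraries above both serum/-LIF libraries, from which nothing is read here because the gene was chosen on it. The Royalactin replicates, at 187 ± 4.67 (SD, n = 2), differed from each other by less than the counting error of either. Against a floor of 3 reads in the shallower serum/-LIF library, or 4.01 normalized counts, the mean was at least 46.7-fold higher, and the 2 libraries at least 45.9- and 47.5-fold. Per kilobase of exon, Gm7325 reached 195 and 202 normalized counts in the Royalactin libraries. This exceeds 79.7% and 80.1% of the 15395 genes with a read in any library and a known length, of which the median was 36.6 normalized counts per kilobase in both. Gm7325 (ENSMUSG00000079471.2) lies on chromosome 17 from 45737916 to 45739051 on the minus strand (mm9), with 944 exon bases in 3 blocks that no other annotated exon overlaps. Its 2 annotated transcripts code for 84 and 108 codons.

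Its partner in fusion was not seen. Tmem8c (chromosome 2, 26917156 to 26927699, minus strand) had no read in any of the 4 libraries, and a count of 0 allows up to 3 reads, which is 2.07 to 4.01 normalized counts by library. Per kilobase, Gm7325 therefore stood at least 97.6-fold above Tmem8c in Royalactin replicate 1 and at least 148-fold in replicate 2.

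The 4 myogenic regulatory factors were at or near 0 in both conditions. Myod1 (chromosome 7, 53631844 to 53634462), the factor that can turn fibroblasts into myoblasts, had no read in any library. Myf5 (chromosome 10, 106919964 to 106923190), the earliest of the 4 in the embryo, had none either. Myog (chromosome 1, 136186581 to 136189124), which drives terminal differentiation, had 7 reads, 7.25 normalized counts, in serum/-LIF replicate 2 and none elsewhere. Myf6 (chromosome 10, 106929916 to 106931785) had 6 reads, 8.02 normalized counts, in serum/-LIF replicate 1 and none elsewhere. Neither gene had a read with Royalactin, and each one's reads came from a single library of its pair, so no difference between the conditions was detectable at this depth. Per kilobase, Gm7325 was at least 80.6-fold above the same floor for each of the 4 in Royalactin replicate 1. In replicate 2 it was at least 122-fold above, with Myf6, the shortest, giving the lowest value in both. Of all 23366 genes, 28.6% had no read in any library, a share to which Tmem8c, Myod1 and Myf5 belong.

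**Figure D1:**
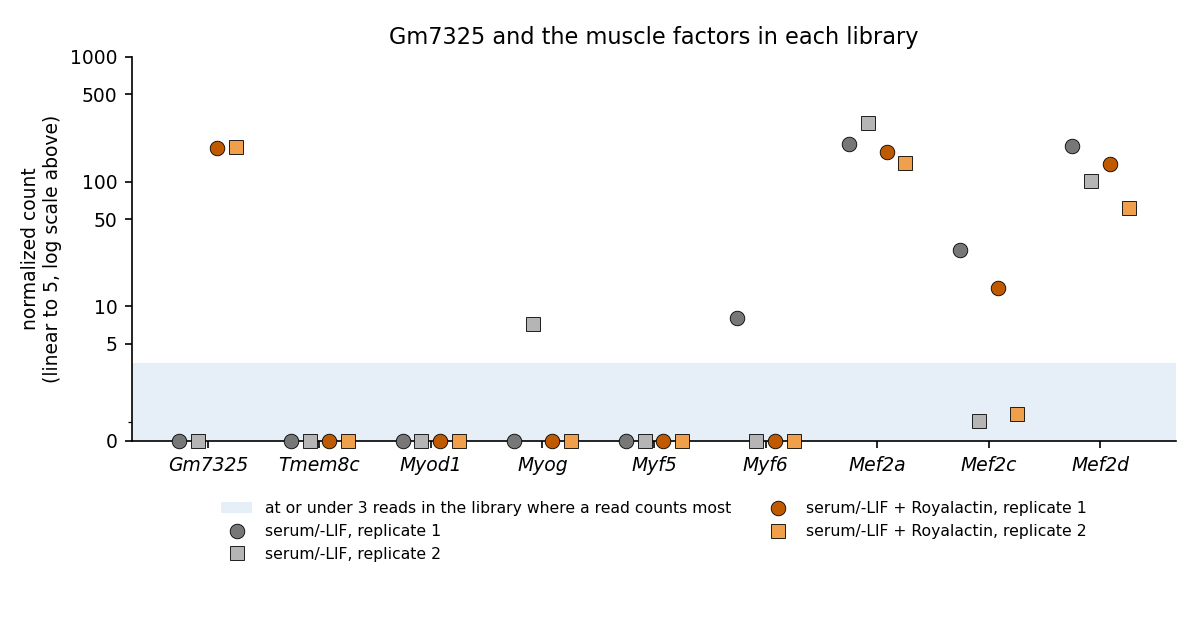
Normalized counts of the 9 genes (vertical axis, linear up to 5 and logarithmic above) in each of the 4 libraries, with circles for replicate 1 and squares for replicate 2 and a shaded band up to 4.01, the largest value that 3 reads have in any library. Gm7325 has reads with Royalactin alone, at 184 and 191, while Tmem8c, Myod1 and Myf5 lie at 0 in all 4 libraries.

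Mef2a and Mef2d were expressed in every library, Mef2c had few reads, and none of the MEF2 genes was called higher with Royalactin. Mef2a (chromosome 7, 74376049 to 74517744) had 199 and 295 normalized counts in serum/-LIF and 172 and 140 with Royalactin. Both Royalactin libraries were below both serum/-LIF libraries, as for 18.9% of the genes tested. The log2 fold change was -0.64 (SE 0.44, 95% interval -1.59 to 0.31, adjusted p = 0.717 by limma across all genes, fitted to the log2 of the normalized count plus a pseudocount of 1 and corrected by Benjamini-Hochberg), on a scale that understates changes of low genes. Mef2d (chromosome 3, 87946294 to 87976008) had 193 and 100 in serum/-LIF and 139 and 61.3 with Royalactin. In it replicate 1 was the higher in each condition, and the conditions overlapped (log2 fold change -0.59, interval -1.85 to 0.68, adjusted p = 0.814 by limma). Of its exon bases, 8.81% lie opposite 1700113A16Rik, whose reads cannot be separated where counting ignores strand. Mef2c (chromosome 13, 83643033 to 83806684) had 21 reads and 1 read in serum/-LIF, 28.1 and 1.04 normalized counts, and 14 and 2 reads with Royalactin, 14.1 and 1.38 normalized counts.

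Mef2c differed more between replicates than between conditions, on few reads. Its value was 27.1-fold higher in replicate 1 than in replicate 2 of serum/-LIF and 10.2-fold higher with Royalactin, against 1.92- and 2.27-fold for Mef2d. Mef2a was higher in replicate 2 of serum/-LIF and in replicate 1 with Royalactin. Of the tested genes, 28.1% were higher in replicate 1 of both conditions, and the Rn45s share was also higher there. The part of Rn45s in these values was not tested. The interval for Mef2c, -4.86 to 4.13 on the log2 scale around -0.36 (adjusted p = 0.974 by limma), holds large changes in either direction, and without Royalactin replicate 2 the value was 0.97. Summed, the 3 MEF2 genes had 420 and 396 normalized counts in serum/-LIF and 325 and 203 with Royalactin, a difference of -0.67 on the log2 scale beside a pooled SD of 0.34 (n = 2 per condition).

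Of the 8 members other than Gm7325, the 3 MEF2 genes passed the minimum mean of 10 normalized counts and 0 were called at an adjusted p under 0.05 by limma, or at an unadjusted p under 0.05, where 0.493% and 9.34% of all 12993 tested genes were. With so few genes called over the whole table, 0 of 3 says little about the MEF2 genes as a group. The order of the levels with Royalactin, per kilobase, was Gm7325, Mef2a (27.2 and 22.2), Mef2d, Mef2c (1.90 and 0.186), then the 5 genes at 0. Mef2d, at 23.2 and 10.2, overlapped Mef2a, so that these neighbours do not differ beyond their spread. In serum/-LIF Mef2a (31.5 and 46.6) and Mef2d stood at the top and Gm7325 was among those without a read.

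Genes with the pattern most like that of Gm7325 were sought as those without a read in both serum/-LIF libraries and with at least 10 normalized counts in both Royalactin libraries, a description with no test. There were 59, and Gm7325 had the highest lower value, 184. The next was Hal, histidine ammonia-lyase, with 52.3 and 101 normalized counts in Royalactin replicates 1 and 2. Piwil4, a PIWI protein of the germline, followed with 37.2 and 45.4, and Kcnh1, a potassium channel, with 39.2 and 36.5. Bcl3, an IκB-like cofactor of NF-κB, had 67.4 and 35.1, and Khdc3, a gene of oocytes and early embryos, 38.2 and 35.1. The median lower value of the 59 was 13.8. The reverse pattern, reads in serum/-LIF alone, was seen for 41 genes with a highest lower value of 49.5. Of the 4 muscle lists described next, 1 gene was among the 59, Myl4, an embryonic and atrial myosin light chain, with 13.1 and 21.3, and 0 genes were among the 41.

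**Figure D2:**
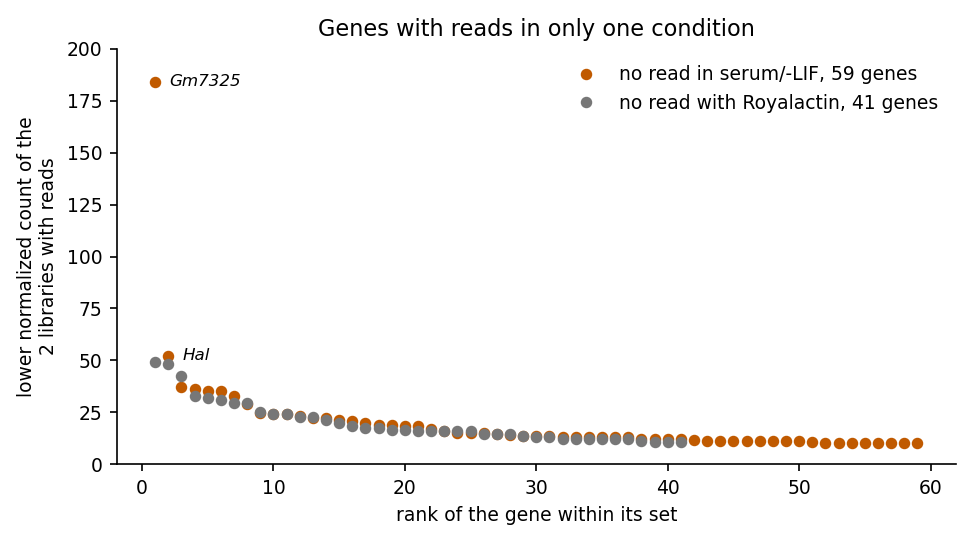
Genes with no read in one condition and at least 10 normalized counts in both libraries of the other, ranked (horizontal axis) by the lower of those 2 values (vertical axis, normalized counts). Among the 59 genes without a read in serum/-LIF, Gm7325 stands at 184 and the next, Hal, at 52.3, while the highest of the 41 reverse genes stands at 49.5.

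On the chromosome, 1 of the 3 nearest table genes on either side of Gm7325 also rose. Slc29a1, the nucleoside transporter ENT1, is the closest, on the same strand with its nearer end 1361 bases downstream of Gm7325. It had 512 and 295 normalized counts in serum/-LIF and 1198 and 1531 with Royalactin, a log2 fold change of 1.80 (SE 0.35, adjusted p = 0.0406 by limma). The conditions did not overlap, as for 19.7% of all tested genes with both Royalactin libraries higher. Slc29a1 passed the threshold in only 3 of 12 alternative settings, with a log2 fold change between 1.40 and 2.19. Per kilobase it was above Gm7325 in both Royalactin libraries, at 299 and 382, and at 128 and 73.6 in serum/-LIF. Some 6.86% of its exon bases lie opposite Gm17080.

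The other 5 neighbours were not called. Slc35b2, a Golgi transporter of the sulfate donor PAPS, had a log2 fold change of 0.49 (adjusted p = 0.772) and lies 33297 bases from Gm7325. Hsp90ab1, the constitutive HSP90 chaperone, had 22592 to 31574 normalized counts in the 4 libraries and a log2 fold change of 0.19 (adjusted p = 0.923), with counts that are uncertain because processed copies of it exist elsewhere in the genome. On the upstream side, Capn11, a calpain of the testis whose nearer end lies 28102 bases away, had 26.7 and 0 normalized counts in serum/-LIF and 11.1 and 17.9 with Royalactin (adjusted p = 0.854). Tmem63b, an ion channel, had a log2 fold change of -0.71 (adjusted p = 0.671), and Mrpl14, a protein of the mitochondrial ribosome, 0.63 (adjusted p = 0.764, all by limma). Intervals of these neighbours reached at least 1.04 in one direction or the other, so changes of about 2-fold were within the spread.

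**Figure D3:**
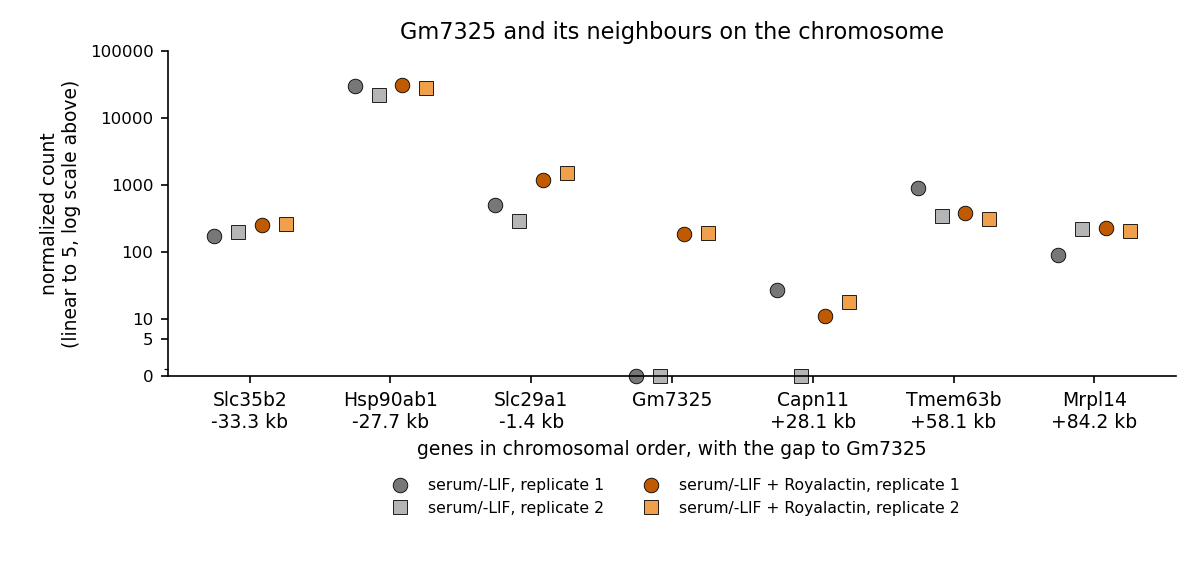
Normalized counts (vertical axis, linear up to 5 and logarithmic above) of Gm7325 and the 3 annotated genes in the table on each side, in chromosomal order with the gap in kb beneath, circles for replicate 1 and squares for replicate 2. Slc29a1, 1.4 kb away, is higher with Royalactin in both replicates, and the other neighbours were not called.

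A wider muscle programme was examined in 4 lists: partners and inhibitors of the muscle factors, upstream factors of the lineage, other genes of myoblast fusion, and contractile and junction genes of skeletal muscle. Of 155 listed genes 153 were in the table, 33 had no read in any library, beside 28.6% of all 23366 genes, and 88 were tested. Jam2, Kat2b, Ttn and Mylpf rose and 0 fell, so that 4 of 88 were called. Of all tested genes, 0.331% were called higher and 0.162% lower. The lists were chosen with earlier results of these data known, so these shares are a description and no independent support. The median log2 fold change of the 88, below 0.01 in size, was like the -0.01 over all tested genes. At an unadjusted p under 0.05, 9 were higher and 11 lower, beside 4.76% of all tested genes higher and 4.58% lower at that limit. Itga3 (integrin alpha 3), called only in some alternative settings, was lower with Royalactin. Its normalized counts were 1204 and 773 in serum/-LIF and 331 and 315 with Royalactin (log2 fold change -1.58, adjusted p = 0.0787 by limma). With 1 library left out, the sample that stays alone being assumed to vary like the other group, 0 of the 88 were called without Royalactin replicate 1 or without replicate 2, 0 of 89 without serum/-LIF replicate 1, and 3 (Jam2, Kat2b and Itga3) without serum/-LIF replicate 2. Over all genes these fits called 4, 0, 0 and 60 genes in place of 64.

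**Figure D4:**
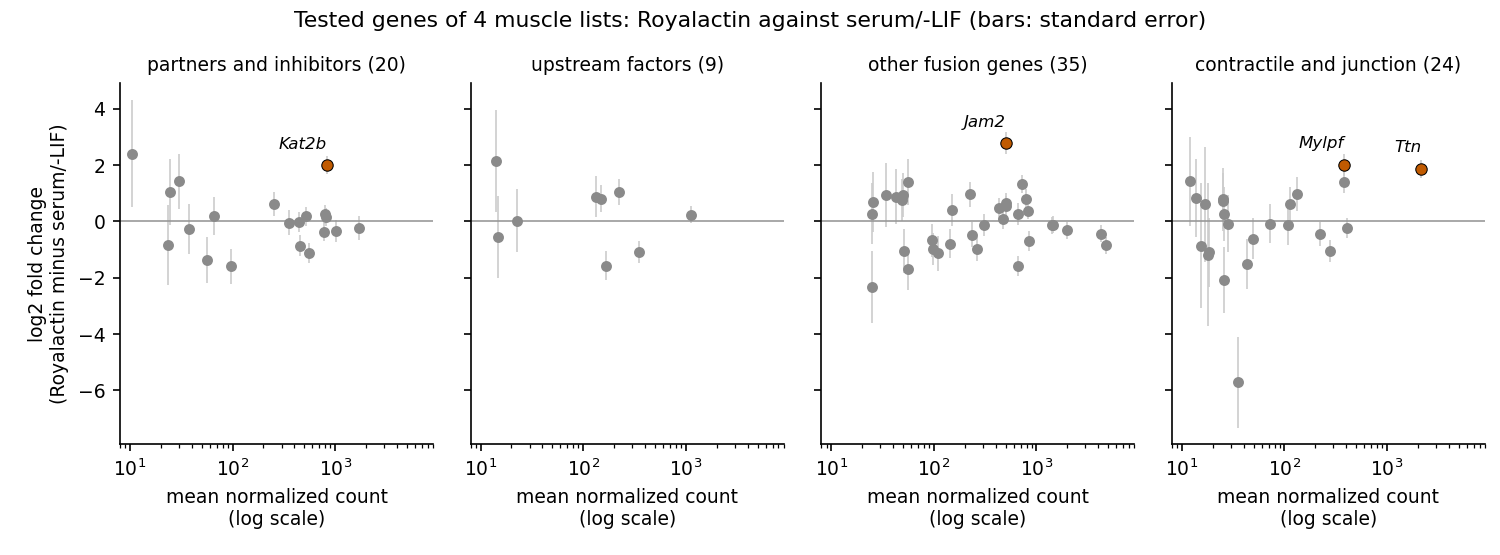
Log2 fold change between serum/-LIF + Royalactin and serum/-LIF (vertical axis, with the standard error as a bar) against the mean normalized count over 4 libraries (horizontal log axis) for the tested genes of each list, 20, 9, 35 and 24 in number. The 4 called genes are filled and named, and the other points scatter on both sides of 0.

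Of the partners and inhibitors, 20 of 23 were tested, 1 rose, 0 fell and the median log2 fold change was -0.04. Kat2b (PCAF, chromosome 17, 53706186 to 53812045), an acetyltransferase that acetylates MyoD and many other proteins, had 358 and 312 normalized counts in serum/-LIF and 1376 and 1295 with Royalactin. The groups did not overlap, as for 19.7% of all tested genes with both Royalactin libraries higher. The difference of means was 3.99-fold and the log2 fold change 2.00 (SE 0.32, adjusted p = 0.0123 by limma). Kat2b was called in 8 of 12 alternative settings, with a log2 fold change of 1.89 to 2.10 in all. Further coactivators were among the most abundant of the list and were not called. Ep300, the acetyltransferase p300, had 2292 and 1285 in serum/-LIF and 2312 and 920 with Royalactin (adjusted p = 0.903), and Carm1, an arginine methyltransferase, 1476 and 793 against 1172 and 628 (adjusted p = 0.842), so that both were higher in replicate 1 of each condition. The E proteins, with which the muscle factors pair, were all well expressed in both conditions. Tcf3 (E2A) had 883 and 577 against 848 and 845, and Tcf12 (HEB) 736 and 1013 against 749 and 604. Id1, an inhibitor that binds E proteins, had 685 and 811 against 280 and 426, a log2 fold change of -1.11 that was not called (adjusted p = 0.274).

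Of the upstream factors, 9 of 19 were tested and 0 were called by limma, with 1 higher and 2 lower at an unadjusted p under 0.05. Of all tested genes 0.493% were called, and 4.76% were higher and 4.58% lower at that unadjusted limit, so 0 of 9 says little. Pax3 and Pax7, the paired-box factors of muscle progenitors, had at most 5 reads and 1 read in a library, all in serum/-LIF. Tbx6 and Msgn1 of the presomitic mesoderm had no read. Six4, a homeobox factor, was the most abundant, at 1099 and 951 normalized counts in serum/-LIF and 1237 and 1178 with Royalactin (adjusted p = 0.854). Tcf15 (paraxis), known from somites and also from stem cells about to leave the naive state, had 159 and 123 against 207 and 407 (log2 fold change 1.05, adjusted p = 0.510).

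Of the other fusion genes, 35 of 41 in the table were tested, 1 rose and 0 fell, with a median log2 fold change of 0.08. Jam2 (chromosome 16, 84774368 to 84826173), a junctional adhesion molecule used by fusing myoblasts and by epithelial and endothelial cells, had 97.6 and 169 normalized counts in serum/-LIF and 861 and 902 with Royalactin. The difference of means was 6.62-fold and the log2 fold change 2.77 (SE 0.39, adjusted p = 0.00501 by limma), the largest of the 4 called, and it was called in 8 of 12 alternative settings with values of 2.38 to 3.16. Cdh15 (M-cadherin), Vcam1 and Cav3, surface and membrane proteins of myoblasts and muscle, had no read in any library. The most abundant fusion genes are found in most cells and were not called: Itgb1 (integrin beta 1) had 5383 and 6855 against 3552 and 3224 (log2 fold change -0.84, adjusted p = 0.353), and Cdc42, a small GTPase, 3932 and 5994 against 3577 and 3591 (adjusted p = 0.721). Crk, an adaptor protein, had 1886 and 2477 against 1989 and 1511 (adjusted p = 0.807).

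Of the 70 contractile and junction genes in the table, 23 had no read in any library, beside 28.6% of all 23366 genes. The 23 include Ckm (muscle creatine kinase), Tnni2 (fast troponin I), Musk, and the adult and perinatal myosin heavy chains Myh1, Myh2, Myh4 and Myh8. Only 24 of the 70 were tested, of which 2 rose, 0 fell and the median log2 fold change was -0.08. Ttn (chromosome 2, 76542037 to 76820604), the giant spring protein of the sarcomere, had 1111 and 738 normalized counts in serum/-LIF and 3958 and 2792 with Royalactin, 3.65-fold more (log2 fold change 1.87, SE 0.32, adjusted p = 0.0195 by limma). With 116828 exon bases, this is 9.51 and 6.32 per kilobase against 33.9 and 23.9, below Gm7325 and below the median of all genes with a read. It was called in 5 of 12 alternative settings with values of 1.58 to 2.17. Mylpf (chromosome 7, 134355122 to 134357812), the regulatory light chain of fast muscle myosin, had 134 and 163 against 461 and 766, a log2 fold change of 2.00 (SE 0.40, adjusted p = 0.0482 by limma), and was called in 3 of 12 settings with values of 1.64 to 2.37. Per kilobase Mylpf was above Gm7325 in both Royalactin libraries, at 521 and 866, and at 151 and 184 in serum/-LIF. The E-box and MEF2 matches printed for the promoters of Ttn and Mylpf stand beside these values as letters only.

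Of the contractile genes not called, Actn3 and Acta1 were chosen after their values were seen, as were Dusp27, Synpo2l and Popdc3 from outside the lists. Actn3, the fast-fibre alpha-actinin, had 213 and 205 against 516 and 580 (log2 fold change 1.39, adjusted p = 0.152). Acta1, skeletal alpha-actin, had 49.5 and 91.1 in serum/-LIF and 0 and 0.688, that is 0 reads and 1 read, with Royalactin (log2 fold change -5.71, adjusted p = 0.193). Neither passed the threshold. The groups of both did not overlap, as for 19.7% of all tested genes higher and 18.9% lower with Royalactin. Srl (sarcalumenin), the most abundant after Ttn, had 447 and 429 against 402 and 348 (adjusted p = 0.886). Dusp27, an atypical phosphatase gene of striated muscle that is in none of the lists, had 102 and 16.6 against 497 and 430 (log2 fold change 3.45, SE 0.68, adjusted p = 0.0441 by limma), called in 4 of 12 settings. Synpo2l and Popdc3, likewise muscle genes outside the lists, went the other way on few reads. Synpo2l had 25.4 and 13.5 normalized counts in serum/-LIF, Popdc3 had 12.0 and 33.1, and neither had a read with Royalactin. In sum the contractile list had 3478 and 3077 normalized counts in serum/-LIF and 6538 and 5668 with Royalactin, without correction for length. Of this Ttn made up 1111 and 738 against 3958 and 2792, and Mylpf 134 and 163 against 461 and 766. The rise of the sum is thus mostly that of Ttn, while the median log2 fold change of the tested genes was -0.08.

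**Figure D5:**
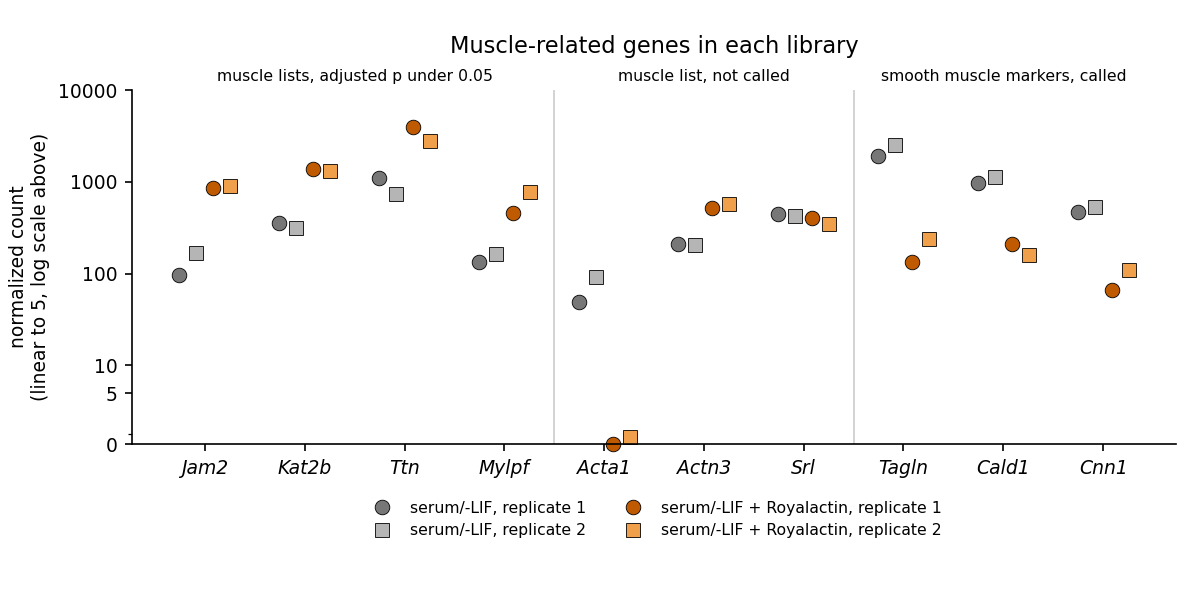
Normalized counts (vertical axis, linear up to 5 and logarithmic above) of 10 muscle-related genes in each library, circles for replicate 1 and squares for replicate 2. Jam2, Kat2b, Ttn and Mylpf are higher with Royalactin in both replicates, Acta1, which was not called, lies at 49.5 and 91.1 in serum/-LIF and at 0 and 0.688 with Royalactin, and the smooth muscle genes Tagln, Cald1 and Cnn1 are lower.

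Smooth muscle, heart and fibroblasts share some of these proteins, and 0 of their markers were called higher with Royalactin by limma. Of 11 smooth muscle markers 7 were tested, 0 rose and 3 fell, against 0.162% of all tested genes lower, and their summed value was 3702 and 4374 normalized counts in serum/-LIF against 600 and 646 with Royalactin. Tagln, an actin-bundling protein, had 1896 and 2524 against 135 and 240 (log2 fold change -3.60, adjusted p = 0.00184 by limma). Cnn1 (calponin) had a log2 fold change of -2.53 (adjusted p = 0.0210) and Cald1 (caldesmon) of -2.51 (adjusted p = 0.0046). Tagln was called in 9 of 12 alternative settings, Cald1 in 8 and Cnn1 in 5. Of 18 heart muscle markers 8 were tested and 0 called by limma, with 1 higher and 2 lower at an unadjusted p under 0.05. Of all tested genes 0.493% were called, and 4.76% were higher and 4.58% lower at that unadjusted limit. With so few markers tested, 0 called says little, here as for the fibroblast markers below. The median log2 fold change of the heart markers was -0.94, with 2 of the 8 above 0. Their sum was 254 to 318 normalized counts in each of the 4 libraries, to which Ryr2, a calcium release channel, gave 73.6 and 48.6 in serum/-LIF and 177 and 191 with Royalactin (adjusted p = 0.320), and Tnnt2, Nppa and Tbx5 had no read. Of 12 fibroblast markers 4 were tested and 0 called (0 higher and 2 lower at an unadjusted p under 0.05), with sums of 345 and 235 against 191 and 117, and Postn and Pdgfrb had no read. The part of these other cell types in the values of Ttn, Mylpf and Mef2a was not tested.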

How the data were processed

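The 4 RNA-seq libraries of J1 mESCs, 2 per condition, were used. Conditions and replicate numbers come from the sample labels, which match the column names. The ATAC-seq samples of the series were not used here. Per the paper's methods and the submitters' processing notes, TopHat was used by the authors for alignment to mm9, HTSeq-count for gene counts and DESeq for normalization. The deposited values are a signal proportional to reads: in each library all are whole multiples of 1 step to within 0.01 of a read. Read numbers are the values divided by that step. In Royalactin replicate 1 the step is too near 1 to be decided automatically, so no count model was fitted. The annotation and strand setting used for counting are not given in the sources used here. All 4 value columns were mapped.

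A pseudocount of 1 was added to each normalized count, and limma 3.58.1 (R 4.3.3) was fitted to the log2 values with a variance trend, two-sided and adjusted by Benjamini-Hochberg, for all genes whose mean was 10 or more. The fit was also run on simulated data with the same spread for every gene and no replicate effect, which does not show how firm the calls in these libraries are. A gene was called at an adjusted p under 0.05. The members and lists were chosen with earlier results of these data known. Named were all members, the called genes of each list (at most 8), its 3 most abundant tested genes, the 5 genes nearest to Gm7325 in pattern and 3 neighbours on each side, any other gene named in the text being chosen after its values were seen. One gene that this rule names is not reported here. A floor of 3 reads stands for a count of 0, which covers counting error alone since PCR duplicates were not marked by molecular identifiers. Positions and exon lengths come from GENCODE vM1 on the same build.

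Alternatives were pseudocounts of 0.1 and 5, other filters and scalings, a replicate block, limma without the trend, and each library left out in turn.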

Additional observations from a re-analysis of the deposited data

How the results depend on the processing

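Over the 12 alternatives, 0 of the members other than Gm7325 were called, of which 2 to 5 were tested (2 where Mef2c failed the filter). The count of called genes, 64, was 32 with a pseudocount of 0.1, 99 with a minimum mean of 50, 34 when every gene with any read was kept, and 0 by limma without the trend (1135 at an unadjusted p under 0.05). With 1 library left out it was 0 to 60, the lone sample being assumed to vary like the other group: 0 without serum/-LIF replicate 1 (2518 at an unadjusted p under 0.05) or Royalactin replicate 2 (547), and 4 without Royalactin replicate 1. The muscle list calls, 4, were 2 with a pseudocount of 0.1 and over all genes, 0 without the trend, and 0 to 3 with 1 library left out.

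A replicate block gave 391 called genes, the 64 included, and 8 of the muscle lists (Actn3, Dock5, Id1, Itga3, Jam2, Kat2b, Mylpf and Ttn). Of these 8, Id1 and Itga3 were lower with Royalactin and the others higher. Deviations of same-numbered libraries correlated at r = 0.0851 across 12993 genes, and no label says that a number marks a shared culture, so the pairing is not established.

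The bound for Gm7325 was 45.5-fold with scaling by the total without Rn45s and at most 60.3-fold with 1 library left out, the lowest being 45.9-fold, and the pseudocount does not enter it. Median log2 fold changes moved to -0.51 over all genes for the upstream factors, to -0.14 and 0.27 with a minimum mean of 50 for the fusion and contractile lists, and to -0.027 with the Rn45s scaling for the contractile list. With 1 library left out they ranged from -0.29 to 0.28 for the partners, -0.26 to 0.63 for the upstream factors, -0.19 to 0.10 for the fusion genes and -0.18 to 0.048 for the contractile genes. Log2 fold changes that changed sign with 1 library left out were all of uncalled genes, with ranges of -2.28 to 0.97 for Mef2c, -0.90 to 0.43 for Ep300 (above 0 also at 0.18), -0.78 to 0.11 for Carm1 (also 0.11), -0.031 to 0.41 for Hsp90ab1, -0.88 to 1.84 for Capn11, -1.43 to 0.0022 for Tmem63b and -0.028 to 1.28 for Mrpl14. The causes were not tested.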
